A study of Homo sapiens with 12 samples.

Results

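The H3K9me3 peaks described here lie on the contigs of the human assembly hg19 that were never given a position on a chromosome. They were chosen by sequence name: every peak of the 4 H3K9me3 lists on a sequence whose name contains "_gl" was taken, whatever its strength. This gave 476 of the 5333 listed peaks, on 28 contigs. Contigs named "chrUn" have no assigned chromosome, and contigs named "random" are assigned to a chromosome but not to a place on it. Such contigs are known to be rich in repeats, and many hold satellite or ribosomal DNA. The satellite content of these 28 was not analysed here, so they are called unplaced contigs below. Their bases were not used here either.

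The cells were HCT116, a long-used line from a human colorectal carcinoma, at passage 19. Control cells (0 hr) were grown in RPMI-1640 medium with fetal bovine serum, and restricted cells (24 hr) were washed and kept in the same medium without methionine, also with serum. Each condition has 2 ChIP-seq libraries, lettered A and B, made with 1 rabbit monoclonal antibody to H3K9me3, and each was compared by the authors with the input of its own time and letter. The design asks where H3K9 methylation lies before and after methionine depletion; there is no 24 hr control among the libraries, so the lack of methionine cannot be told apart from the added day in culture. In bulk ChIP-seq, less mark in every cell and a loss in some cells cannot be told apart either.

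H3K9me3, the trimethylated form of lysine 9 on histone H3, is written by enzymes such as SUV39H1 and SETDB1 and is bound by HP1 proteins. It marks constitutive heterochromatin, above all the tandem repeats in and around centromeres, and it is also found on silent copies of the ribosomal DNA. The methyl group comes from S-adenosylmethionine, which cells make from methionine.

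The libraries held 33503018 to 35736289 ChIP tags and 23523460 to 27843707 input tags. With 2 libraries against 2, an exact two-sided permutation test cannot give a p below 0.33, so no single value could pass 0.05. Whether A and B were grown as separate cultures is not in the labels, so a p-value here may reflect technical spread only. The letter coincides with the sequencing lane named in the file headers, so restricted over control within A or within B is a within-lane value.

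Contig peaks covered less sequence in each restricted library than in either control, while their number did not separate the conditions. Control A held 120 contig peaks and control B 105 (112.5 ± 10.6, SD, n = 2), and restricted A held 132 and restricted B 119 (125.5 ± 9.19, SD, n = 2). The difference was 13 peaks (exact permutation p = 0.667, two-sided). The length under these peaks was 271 and 251 kb in controls A and B (261 ± 14.1 kb, SD, n = 2) and 201 kb in each restricted library (201 ± 0.308 kb, SD, n = 2). The difference was -60.4 kb (exact permutation p = 0.33, the smallest possible), and restricted over control was 0.741 within A and 0.798 within B. The nearly equal restricted totals were made up differently in A and B, as the single contigs show. Without chrUn_gl000225 the difference was -16.5 kb, and the conditions overlapped (189 and 174 kb against 185 and 145 kb).

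As a share of the length called in each list, contig peaks took 15.8% and 21.0% in controls A and B, 10.2% and 22.01% in their restricted counterparts, so the restricted libraries held both the lowest and the highest share. The difference was -2.29 percentage points (exact permutation p = 1). Restricted over control was 0.647 within A and 1.05 within B. Without control B the difference was 0.332 and without restricted A 3.61 percentage points. Restricted A listed the most peaks on chromosomes, 1880 against 674 to 1372 in the others.

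Contigs took a larger part of the peaks with a −log10 q of at least 5 than of all peaks. This cutoff is on q and not on fold enrichment, which was lower on contigs (below). Of contig peaks, 48.3%, 52.4%, 35.6% and 51.3% reached a −log10 q of 5 in controls A and B and restricted libraries A and B. On chromosomes 1 to 22 and X the same shares were 11.5%, 16.9%, 9.36% and 17.4%. Among all peaks at that q on contigs and these chromosomes, contig peaks made up 26.9%, 28.9%, 21.1% and 34.3%, and 34.8%, 35.6%, 29.9% and 37.02% of their length.

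Contig peaks were deep in reads and low in fold over input. Pileup is the number of reads stacked over a peak and fold enrichment is pileup over the local background from the input, both taken from the deposited lists; in broad mode the caller reports means over a region. The median pileup of contig peaks was 128, 131, 46.9 and 204 in controls A and B and restricted libraries A and B, the order kept below. On chromosomes it was 19.8, 20.04, 16.1 and 21.9. The mean log2 ratio of contigs to chromosomes was 2.54 ± 0.71 (SD, n = 4; higher in 4 of 4 libraries; exact paired permutation p = 0.13, two-sided, the smallest possible, and 0.13 after Benjamini-Hochberg adjustment over 10 such comparisons). Among peaks with a −log10 q of at least 5, this ratio was -0.02, -0.13, 1.59 and -0.15 in the same order, so the difference in pileup was not kept in 3 of the 4 libraries.

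Median fold enrichment on contigs was 1.90, 1.86, 2.24 and 1.69, below the 3.03, 3.03, 3.44 and 3.06 on chromosomes in 4 of 4 libraries (mean log2 ratio -0.71 ± 0.10, SD, n = 4; exact paired permutation p = 0.13). Pileup divided by fold gives the background that the input implies at a peak. At contig peaks its median was 22.8, 27.0, 8.43 and 40.6 times the level that the input's tag number alone gives, against 2.06, 2.40, 1.69 and 2.22 times at chromosome peaks. These sites were therefore also covered deeply by input reads.

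**Figure D1:**
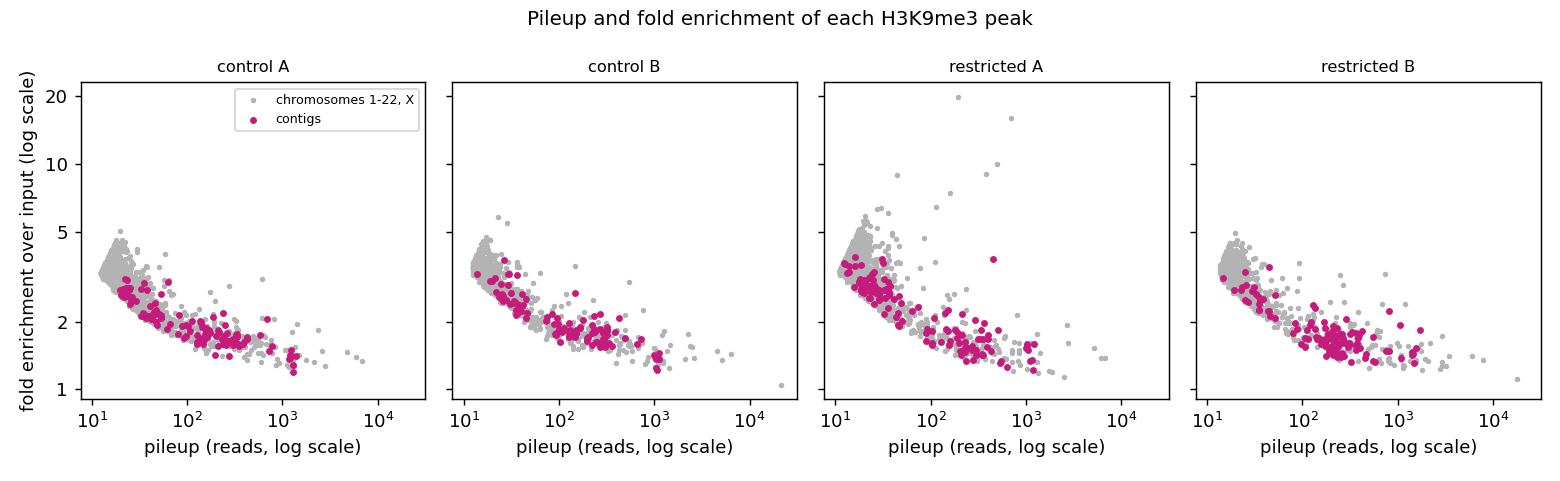
Pileup (x, reads, log scale) against fold enrichment over input (y, log scale) for every H3K9me3 peak, 1 panel per library. Grey points are peaks of chromosomes 1 to 22 and X and coloured points are contig peaks, whose medians lie at higher pileup and lower fold in each of the 4 libraries.

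The nearest comparison on chromosomes, peaks within 5 Mb of a centromere gap, lay between the contigs and the rest. Their median pileup was 37.99, 48.97, 21.5 and 47.8, and the contig ratio to them was a mean log2 of 1.60 ± 0.42 (SD, n = 4; higher in 4 of 4; exact paired permutation p = 0.13). Contig peaks were also longer, with medians of 1244.5, 1317, 887.5 and 1145 bp against 805, 944, 828.5 and 899 bp near the gaps (mean log2 ratio 0.39 ± 0.22, SD, n = 4; exact paired permutation p = 0.13). The shortest contig peaks, of 299 to 302 bp, had the fragment length that the caller used.

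The median pileup of contig peaks did not separate the conditions: the difference was -3.99 reads (exact permutation p = 1), with 128 and 131 in the controls and 46.9 and 204 in the restricted libraries. Within A restricted over control was 0.367 and within B 1.56. Peaks with a pileup over 100 numbered 65, 60, 58 and 91, so restricted A listed about as many deep peaks as the controls and more shallow ones. Among peaks with a −log10 q of at least 5 the medians were 252 and 261 in the controls and 296 and 285 in the restricted libraries, a difference of 34.1 reads in the other direction. These medians were not divided by input tags. Those numbered 27721656 and 24434844 in the controls and 23523460 and 27843707 in the restricted libraries, so input depth was not removed.

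Of the 28 contigs, 12 had a peak in all 4 libraries, 5 in 3, 3 in 2 and 8 in 1 library. The 8 with the most length under peaks held 80.7% of it on average, and the other 20 had mean lengths of 0.0828 to 6.75 kb. The unit test took each contig as 1 unit beside the 1 Mb bins of the chromosomes and compared kb under peaks per Mb called with limma. Units entered where 2 or more libraries had a peak, which left 698, of which 20 were contigs. No contig and no other unit passed an adjusted p under 0.05 (0.0% called), and 1 contig and 24 units in all had an unadjusted p under 0.05. That contig was chr9_gl000199_random, which entered the test only through the restricted libraries, where it is high. The median log2 difference, restricted minus control, was -0.45 over the 20 contigs and 0.02 over all units.

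By plain length, 6 of the 20 tested contigs were lower in each restricted library than in either control, where 11.9% of all units were. Among these 6 were near ties: chrUn_gl000226 was lower by a few bases only. On chrUn_gl000220 restricted A had 36.765 kb against 37.073 kb in control B. Of the 20, 1 contig, chr9_gl000199_random, was higher in each restricted library than in either control, where 14.2% of all units were. With no control peak and a filter of 2 libraries, its side was set in advance, here and per Mb called. The same holds for any unit listed in a single condition. Per Mb called, 3 contigs were lower, against 12% of all units, and 2 were higher, against 17.6%. The 3 were chrUn_gl000216, chrUn_gl000221 and chrUn_gl000222, and the 2 were chr9_gl000199_random and chrUn_gl000212. The number not overlapping per Mb called, 5 of 20, stands beside 29.7% of all units.

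**Figure D2:**
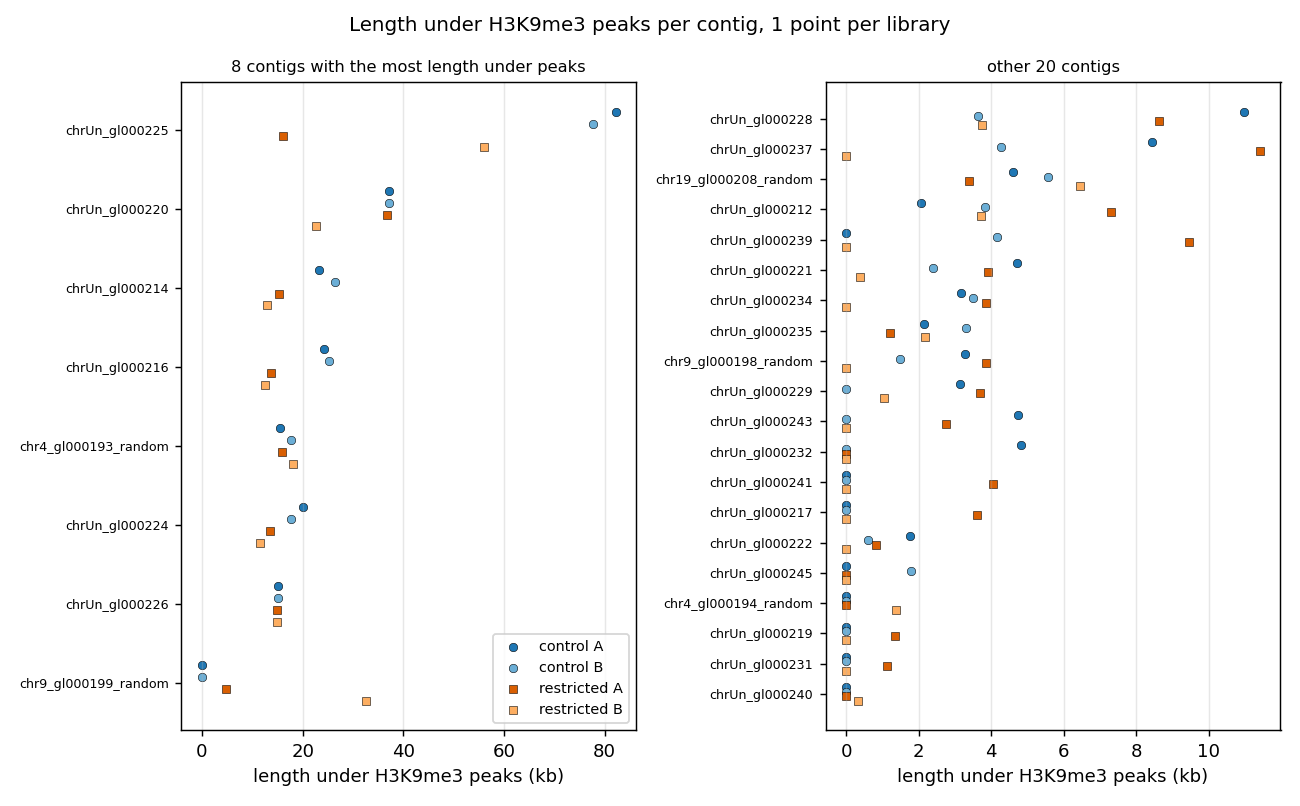
Length under H3K9me3 peaks (x, kb) for each contig (y), with 1 point per library, circles for control and squares for restricted; the panels have separate axes. On chrUn_gl000225 restricted A lies at 16.0 kb against 56.0 to 82.2 kb in the other libraries, and chr9_gl000199_random has points above 0 in the restricted libraries alone.

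The contig with the most length under peaks, on average and in each library but restricted A, was chrUn_gl000225, which carried 30.3% and 30.9% of all contig length under peaks in the controls. It held 82.2 kb (32 peaks) and 77.7 kb (31 peaks) in controls A and B, and 16.0 kb (18 peaks) and 56.0 kb (32 peaks) in their restricted counterparts. Both restricted libraries lay below both controls, but restricted B was far closer to the controls than to restricted A. Its log2 difference per Mb called was -1.30 (SE 0.93; limma adjusted p = 0.942). Without restricted A this difference was 0.14, and without restricted B it was -2.73, so it rested on restricted A. The latter fit gave a limma adjusted p of 0.000341, but with 1 restricted library left, which is assumed to vary like the controls.

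The chrUn_gl000225 peaks of restricted A were short. Over the peaks listed, their median pileup was 154, beside 159 and 149 in the controls and 194 in restricted B, while their longest peak measured 1630 bp against 7529, 10661 and 10668 bp. Of 14 regions on this contig found in all 4 libraries, the highest pileup of restricted A was below both controls in 8, above both in 3 and between them in 3. In chrUn_gl000225:29892-37473, for example, it was 89.4 against 143 and 178 in the controls and 208 in restricted B. These pileups were not divided by input tags, of which restricted A had the fewest, 23523460. After that division, restricted A stayed below both controls in some of the 8 regions, including this one. In others of the 8 it lay between the controls, or above both as in chrUn_gl000225:143-3073. The counts therefore do not show that restricted A was shallower on this contig. Of the 68.6 kb that lay under peaks in both controls, restricted A covered 18.8% and restricted B 75.3%. In turn, 100% of the 12.1 kb found in both restricted libraries lay under peaks of control A and 98.0% under peaks of control B. The region chrUn_gl000225:110252-120919 held 9.41 and 10.7 kb under peaks in the controls, 1.34 kb in restricted A and again 10.7 kb in its B counterpart.

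A related pattern, with both restricted libraries lower, was seen on chrUn_gl000214, chrUn_gl000216 and chrUn_gl000224. On chrUn_gl000214 the length was 23.3 and 26.3 kb in the controls, and the restricted libraries had 15.3 and 12.9 kb. Most of this came from chrUn_gl000214:123291-137660, which was 1 unbroken peak of 14.1 and 14.2 kb in the controls. It was split into 3 peaks with 8.90 kb in restricted A and 4 peaks with 7.42 kb in restricted B. The highest pileup in this region was 231 and 196 in the controls and 237 and 311 in the restricted libraries. The lowest of the split peaks had 187 in restricted A and 204 in restricted B, so the pieces lay on either side of the control values.

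On chrUn_gl000216 the length under peaks was 24.3 and 25.2 kb in the controls and 13.6 and 12.5 kb in the restricted libraries. This contig was lower in both restricted libraries per Mb called as well, with 14.1 and 21.1 against 6.91 and 13.7 kb per Mb (log2 difference -0.80, SE 0.57; limma adjusted p = 0.926). In restricted B its peaks began at position 83450, whereas the other 3 libraries had peaks from position 1338, 1563 and 1548 on. On chrUn_gl000224 the length was 20.1 and 17.8 kb against 13.5 and 11.5 kb (log2 difference -0.49, SE 0.54; limma adjusted p = 0.998).

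**Figure D3:**
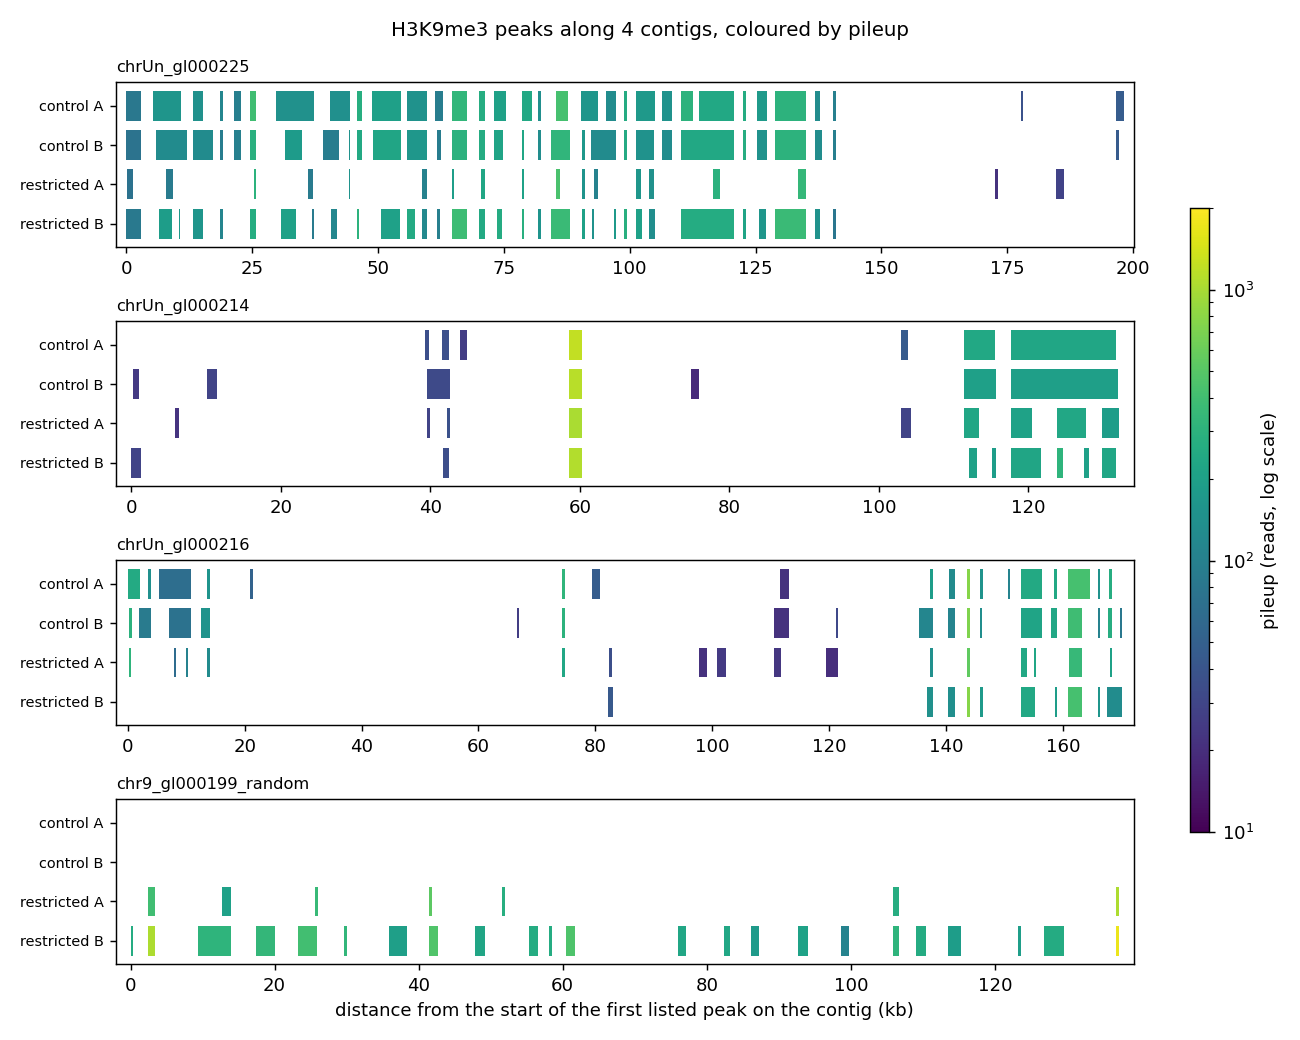
H3K9me3 peaks along 4 contigs, 1 row per library; x is the distance in kb from the start of the first listed peak on that contig, and colour gives pileup on a log scale. On chrUn_gl000225 the peaks of restricted A are short, at places where the other libraries have wide peaks, and the end block of chrUn_gl000214 is unbroken in the controls and split in both restricted libraries.

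Peaks on chr9_gl000199_random, an unlocalised piece of chromosome 9, were listed in the restricted libraries alone. Both controls list this contig at 0, restricted A had 7 peaks with 4.77 kb, and restricted B had 23 peaks with 32.7 kb. It entered the unit test only through the restricted libraries, where it is high, so its place in the counts above was set by the filter. Its p-values are given as a description and support nothing. They were 0.786 adjusted (limma) and 0.00514 unadjusted, and the call depended on the settings: adjusted p was 1.93e-06 with units found in 1 library let in and 0.00188 with 5 Mb bins. Across all settings tried in which it was tested, its adjusted p ranged from 1.93e-06 to 0.873. A list at 0 says that no peak passed the authors' cutoffs there, not that the mark was absent.

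The chr9_gl000199_random peaks were deep and only slightly above input. Their pileup ran from 204 to 1046 in restricted A and from 107.55 to 1719 in restricted B, with fold enrichments of 1.31 to 1.68 and 1.32 to 1.93. Of the 7 peaks of restricted A, 6 overlapped a peak of restricted B. The peak at the far end, chr9_gl000199_random:168079-168572 in restricted A and 168079-168569 in restricted B, had pileups of 1046 and 1719, and the latter was the highest of any contig peak. Another, chr9_gl000199_random:33735-34695 in restricted A, had a pileup of 397, and its counterpart at 33727-34711 in restricted B had 1053.

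On chrUn_gl000220, known to hold ribosomal DNA, the peaks were among the deepest. The length under them was 37.1 kb in either control and 36.8 and 22.7 kb in the restricted libraries, so restricted B stood apart from the other 3. The log2 difference per Mb called was -0.26 (SE 0.49; limma adjusted p = 0.998). Peaks of the middle block, chrUn_gl000220:119113-126430 and the 4 that follow it in control A, had pileups of 1199 to 1399 and folds of 1.197 to 1.42. The peaks of control A to either side had pileups of 329 to 385 and folds of 1.59 to 1.76. Restricted B reached 1557 in the middle block, and restricted A 1218.

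The flanking peaks on chrUn_gl000220 recurred at a distance of about 44 kb, which is the known scale of a human ribosomal DNA repeat. In control A, peaks started at 109193 and again at 153162, 43969 bp further on, and others ended at 106831 and at 150801, a distance of 43970 bp. Edge pairs this far apart (43935 to 44031 bp) numbered 2 and 3 in the controls and 4 and 5 in the restricted libraries, with medians of 43969.5, 43972, 43972 and 43972 bp. The spacing was searched for after the peak positions were seen. Peaks on repeated sequence share reads and are not independent of each other, and how reads that match several places were assigned is not given in the sources used here.

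**Figure D4:**
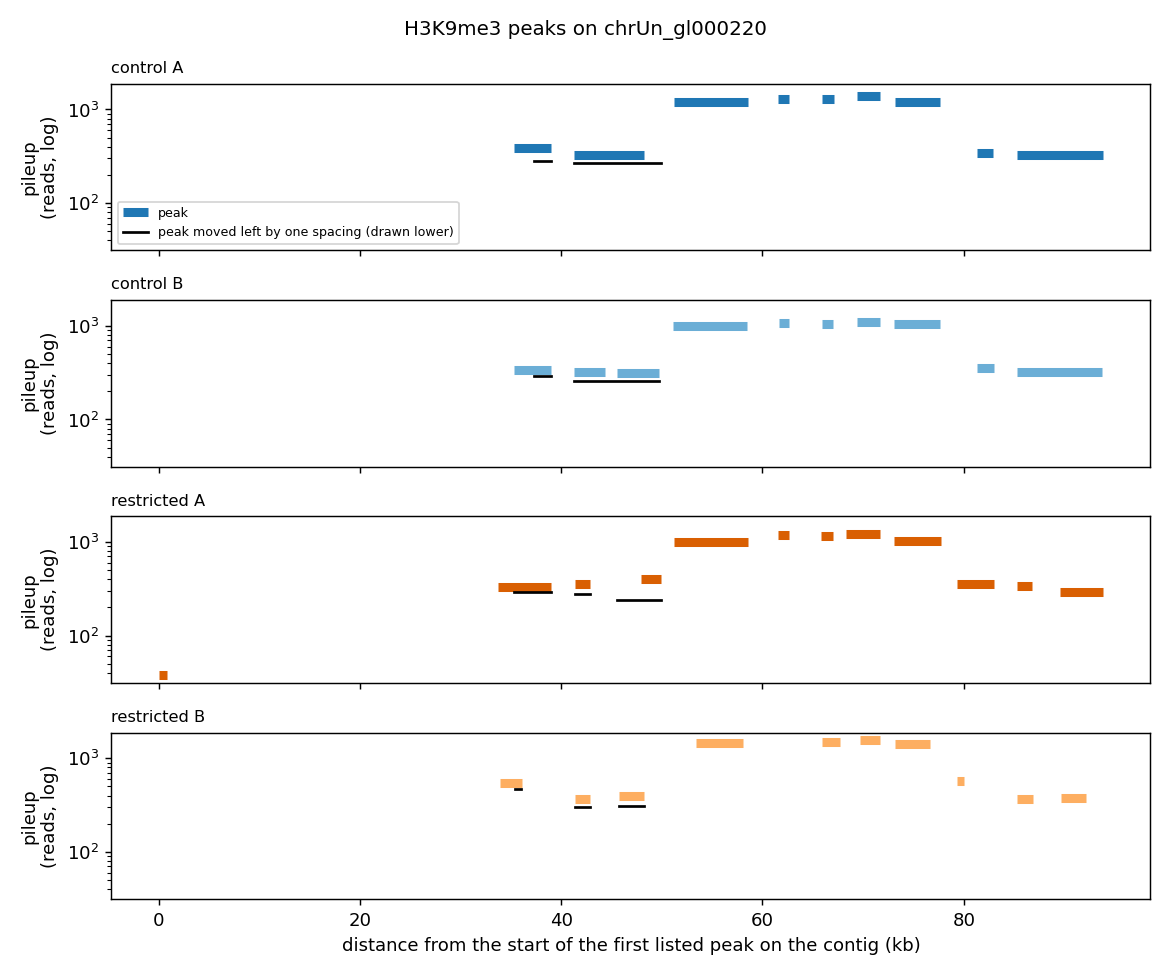
H3K9me3 peaks on chrUn_gl000220 in each library; x is the distance in kb from the start of the first listed peak and y is pileup on a log scale. Thin black lines repeat right-hand peaks moved left by the library's median spacing, 43969.5 to 43972 bp, and are drawn lower for visibility. Only moved peaks that overlap a listed peak are drawn, so the overlap seen was set by that rule.

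A much shorter regular spacing appeared on chrUn_gl000228 in restricted A. There 6 pairs of edges lay 3314 to 3396 bp apart, among 11 peaks, and the other libraries had none in the range of 3300 to 3400 bp. The 7 peaks involved were shallow, with pileups of 18.75 to 22.95, and control A listed 5 peaks of 21.97 to 23.69 over the same stretch without that spacing. Control B and restricted B listed 2 peaks each on this contig and none over that stretch, so they could not show the spacing there.

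The least variable contig was chrUn_gl000226. It was covered from its first base by 1 peak in every library, of 15006, 15008, 14998 and 15001 bp in the usual order. It is counted among the 6 lower contigs by these few bases only. Its pileup was 1158, 1120, 1103 and 1410, and its fold 1.36, 1.45, 1.33 and 1.42. On chr4_gl000193_random, an unlocalised piece of chromosome 4, the length was likewise similar, at 15.4 and 17.7 kb in the controls and 15.8 and 18.2 kb in the restricted libraries. Its wide peak at chr4_gl000193_random:78577-92119 held 13.5, 13.5, 12.9 and 11.6 kb.

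Of the 120 contig peaks of control A, 4 had both edges within 50 bp in all 4 libraries. The same held for 17 of its 1372 chromosome peaks and for 14 of its 447 peaks near the centromere gaps. Besides the chrUn_gl000226 peak, the contig peaks so matched lay at chrUn_gl000214:64149-65887, chrUn_gl000216:144994-145485 and chrUn_gl000228:26468-27767 (edges of control A). The first of these had pileups of 1230, 1127 (the deepest contig peak of control B), 1028 and 1093 and folds of 1.49, 1.36, 1.56 and 1.37 in the usual order. The peak on chrUn_gl000216 had 770, 723, 550 and 757, lowest in restricted A, and that on chrUn_gl000228 had 215, 203, 182 and 179. On chrUn_gl000228 both restricted libraries thus lay below both controls; divided by the number of input tags, control A and restricted A were nearly equal.

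The highest −log10 q of any contig peak was on chrUn_gl000212, in restricted A. In restricted B, a peak at chr9_gl000199_random:168079-168569 had a higher value, 104.6, than the peaks on chrUn_gl000212. Around chrUn_gl000212:40399-44236, restricted A had 1 peak with a pileup of 451, a fold of 3.79 and a −log10 q of 136.6. Control B had 1 peak of nearly the same extent with a pileup of 425, a fold of 2.08 and a −log10 q of 38.8. Control A and restricted B each had 2 peaks there. The deeper of them had pileups of 694 and 808, folds of 2.05 and 2.22 and −log10 q values of 59.7 and 100.8. The whole contig held 2.06 and 3.82 kb in the controls and 7.31 and 3.72 kb in the restricted libraries. Per Mb called it was 1.201 and 3.20 against 3.71 and 4.08 (log2 difference 0.87, SE 0.63; limma adjusted p = 0.942).

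The other contigs that did not overlap between conditions per Mb called held little sequence under peaks. On chrUn_gl000221 the length was 4.72 and 2.38 kb in the controls and 3.90 and 0.384 kb in the restricted libraries, all in shallow peaks with pileups of 13.9 to 38.1. Per Mb called this contig had 2.75 and 1.995 against 1.98 and 0.421 kb, so control B and restricted A were nearly tied. On chrUn_gl000222 it was 1.76 and 0.609 kb against 0.828 and 0 kb. Its peak near position 84052 had a pileup of 584.5 in control A, 496 in control B and 508 in restricted A, and restricted B listed none.

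Contig peaks recurred between libraries more often than chromosome peaks did. After merging peaks within 1 kb, contigs held 204 regions, of which 40 (19.6%) were found in all 4 libraries and 91 (44.6%) in 1 library. Chromosomes 1 to 22 and X held 3228 regions, of which 150 (4.65%) were found in all 4 and 2387 (73.9%) in 1. The base-pair Jaccard index, shared length over joint length, was 64.3% between the controls on contigs, 30.2% between the restricted libraries and 36.04% to 48.6% for the other 4 pairs. On chromosomes it was 28%, 15.5% and 18.8% to 23.5%, lower for each of the 6 pairs. Peaks near the centromere gaps lay between, at 47.9%, 25.3% and 33.04% to 36.5%. Without chrUn_gl000225 the contig values were 59.9%, 32.6% and 36.6% to 43.2%. Pairs share libraries and contig regions lie close together, so no test was made of these differences. Peaks can also fill much of a contig: on chrUn_gl000225 they covered 41.5%, 39.2%, 8.09% and 28.2% up to the highest listed end, in the usual order. The overlap that such density alone would give was not estimated.

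Few merged contig regions were listed in both libraries of 1 condition and in neither of the other. The controls alone shared 6 (2.94%), and the restricted libraries alone shared 9 (4.41%), of which 6 lay on chr9_gl000199_random. On chromosomes these shares were 2.14% and 2.45%, so the share in controls alone was near that background. The widest control-only regions were chrUn_gl000225:106471-108561, with 2.09 and 1.94 kb under peaks, chrUn_gl000224:38550-40566, with 1.94 and 1.23 kb, and chr9_gl000198_random:84811-86399, with 1.59 and 1.49 kb. Next were chrUn_gl000225:196757-198220 and chrUn_gl000225:21528-22852. The widest restricted-only regions were chr9_gl000199_random:40684-45227, with 1.15 and 4.54 kb, chr9_gl000199_random:54616-57404, with 0.482 and 2.56 kb, and 2 more on that contig from positions 72684 and 33727. The fifth, chrUn_gl000212:23250-24178, held 0.717 and 0.615 kb.

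These counts depended on how presence was defined. With peaks required to cover at least 50% of a region, 15 regions were found in all 4 libraries, 14 in the controls alone and 6 in the restricted libraries alone. With a −log10 q of at least 5 the numbers were 25, 2 and 4. Of the 205 kb under contig peaks of both controls, restricted A covered 54.1% and restricted B 67.5%, beside 66.8% and 52.0% for the 523 kb shared by the controls on chromosomes.

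The remaining 8 contigs, each listed in 1 library, were not in the unit test: 2 were found in a control library and 6 in a restricted library. They held 0.331 to 4.82 kb, and the longest was chrUn_gl000232 in control A.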

How the data were processed

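ChIP-seq peak lists of 4 H3K9me3 libraries were used; the 4 H3K9me1 lists were read for regions on contigs and for the centromere gaps. Per the submitters' processing notes, MACS2 2.1.1.20160309, SAMtools 1.5 and Bowtie2 2.1.0 were used and the genome was hg19. The authors, per the file headers, called broad peaks per library with MACS2 against the input with its time and letter, keeping all duplicates, at q cutoffs of 0.05 (strong) and 0.1 (weak), and scaled the larger library of each pair to the smaller. The deposited pileup is a signal (read coverage), fold enrichment is a deposited ratio to the local background, and p-values and q-values were deposited as −log10.

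Counts, lengths, overlaps (at least 1 bp) and medians were computed with Python 3.11.15. Single values were compared by exact permutation over the 6 relabellings. Units (contigs and 1 Mb bins that 2 or more libraries had a peak in) went into limma 3.58.1 in R 4.3.3 on log2(kb under peaks per Mb called + 0.3), with trend and robust eBayes and Benjamini-Hochberg adjustment over all 698 units, so log2 differences of sparse contigs are understated. The fit was tested on simulated data. Centromere gaps were the region-free stretches at the known centromeres. Named contigs were the 8 with the most length under peaks and all tested contigs whose conditions did not overlap per Mb called. Named regions were the longest and the deepest contig peak of each library and the 5 widest merged regions in all 4 libraries, in both controls alone and in both restricted libraries alone. Others, among them peaks matched in all 4 libraries, chrUn_gl000228 and the repeat spacing, were chosen after their values were seen. The members, lists and tests were chosen with earlier results of these data known. Alternatives were stricter thresholds, equal peak numbers, other pseudocounts, filters, scalings and bins, a replicate block by letter, and each library left out. Leaving out single contigs and dividing pileup by input tags were chosen after seeing the data. Peaks are not assigned to genes, since an hg19 annotation was not used here.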

Additional observations from a re-analysis of the deposited data

Results flagged for a closer look

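H3K9me1, the monomethylated form of the same residue, was listed on contigs in 1 of the 4 H3K9me1 libraries. Restricted A had 34 regions on chrUn_gl000212 with 11.99 kb in all, while both controls and restricted B listed none on any contig. The H3K9me1 lists leave out whole chromosomes as well, with 20, 10, 23 and 19 sequences listed in controls A and B and restricted libraries A and B. Of the 34 regions, 8 overlapped an H3K9me3 peak of restricted A.

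Peaks of H3K9me3 on the mitochondrial sequence, which carries no histones, were listed in restricted B alone. The 3 peaks there measured 1.29, 3.22 and 2.13 kb and had pileups of 47.25, 46.6 and 58.7 with folds of 2.31, 2.12 and 2.06. Both controls and restricted A listed none.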

How the results depend on the processing

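The mean length under contig peaks stayed lower in the restricted group under all 10 alternatives tried for it, but the conditions overlapped without chrUn_gl000225 (-16.5 kb). The mean log2 pileup ratio of contigs to chromosomes stayed above 0 under all 7, but at a −log10 q of at least 5 it was 0.32 and came from restricted A alone. With a −log10 q of at least 5 the difference in peak number was -2.5 and that in median pileup 34.1; median pileup also turned with equal numbers of peaks (49.2) and as a length-weighted mean (55.8). Leaving out 1 library each moved the difference in share from -8.20 to 3.61 percentage points and that in median pileup from -82.5 to 74.5. Regions in all 4 libraries numbered 15 (peaks over at least 50% of the region) and 25 (−log10 q of at least 5), those in controls alone 14 and 2, and those in restricted libraries alone 4 at that q. The number of contigs called was 0 in the reported fit, where 0 of the 698 units were called. It was 1 with units found in 1 library let in and 1 with 5 Mb bins. In both fits this was chr9_gl000199_random, the only unit called, among 1392 and 456 units. The cause was not tested. Fits without 1 library leave an arm with 1 library, assumed to vary like the other group, so their calls are not counted here. In each fit that held it, chr9_gl000199_random entered through the group where it is high. The letter coincides with the lane but with no stated shared culture (correlation of A minus B over the 698 units 0.094), and with the letter as a replicate block 0 contigs were called (smallest adjusted p 0.359). The exact paired permutation tests gave p = 0.5 for number and length and 1 for share and pileup; 0.5 is the smallest possible. Named contigs whose log2 difference turned were chrUn_gl000225 (-2.73 to 0.14 leaving out 1 library each), chrUn_gl000220 (0.11 at a −log10 q of at least 5), chr4_gl000193_random (-0.51 to 0.77 leaving out 1 library each; below 0 without control A, -0.22, or restricted B) and chrUn_gl000226 (-0.00071 unscaled, and -0.45 to 0.64 leaving out 1 library each; -0.16 without control A). The median log2 difference over contigs was 0.21 at a −log10 q of at least 5, where 14 contigs were tested. The authors' cutoffs and unknown treatment of repeated reads limit what a missing peak shows.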
